A study of Mus musculus with 12 samples.

Results

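The 45 genes described here encode the machinery that copies DNA and the switches that open S phase. They were taken as a list of gene symbols covering origin licensing, origin firing and the replicative helicase, the polymerases, the sliding clamp with its loader and lagging-strand factors, chromatin assembly, deoxynucleotide supply and G1/S control. All 45 were found among the 47643 genes of the count table, lie on 16 chromosomes, and belong to the 13681 genes that passed the filter on low counts. They were measured by bulk RNA-seq. in 12 libraries of mouse osteoclasts, the bone-resorbing cells that form by fusion of monocyte precursors. In all 3 groups, monocytes derived from the bone marrow (BMMs) of WT BALB/c mice were differentiated with M-CSF and RANKL and harvested on day 3. OCsCtr cultures (n = 4) were left unstimulated, OCsEo cultures (n = 4) received sorted eosinophils of hyper-eosinophilic IL-5tg/4get mice (BMMs/Eos ratio 1:2) from day 0 for 48 h, and OCsEoS cultures (n = 4) received eosinophil supernatant (1:2 dilution) over the same 48 h. After 48 h the stimulus was removed and the cells were washed, so that the RNA was taken 1 day after the stimulus had ended. The study describes the libraries of a group as biological replicates and the points of its plots as individual mice, and the labels do not tie a library to a mouse.

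Before a cell divides, each replication origin is licensed in G1, when the origin recognition complex, Cdc6 and Cdt1 load the ring-shaped MCM helicase onto DNA, and geminin later blocks Cdt1 so that no origin fires again in the same cycle. At the start of S phase, Cdc45 and GINS turn MCM into an active helicase, polymerase alpha with primase starts each new strand, and polymerases delta and epsilon extend it while held by the PCNA clamp, which replication factor C loads. Many of these genes are switched on together at G1/S by E2F transcription factors, once cyclins with their kinases have inactivated the retinoblastoma protein. Osteoclast precursors proliferate under M-CSF, whereas fused osteoclasts have left the cell cycle.

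Total counts per library ranged from 27837530 to 40327869, and the 45 genes were covered deeply enough that the lowest of their counts in any library was 61 (Orc1) and the highest 19674 (Pcna). The replicates of a group differed beyond sampling noise in all 18 pairs. Expression is given as CPM, the counts of a gene relative to the size of its library, after scaling with TMM factors of 0.968 to 1.03, and a gene is said to have risen or fallen where the edgeR quasi-likelihood test over all 13681 genes gave an adjusted p under 0.05.

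The replication genes were higher after stimulation with eosinophils and with their supernatant. Summed over the 45 genes, the level was 2515 ± 140.2 CPM (SD, n = 4) in OCsCtr, 3395 ± 152 in OCsEo, 1.35 times that of OCsCtr, and 3503 ± 313 in OCsEoS, 1.39 times that of OCsCtr. The OCsCtr libraries lay between 2389 and 2714 CPM, below all OCsEo libraries (3233 to 3579) and all OCsEoS libraries (3107 to 3871). These sums correspond to 0.237 to 0.279% of all counts in OCsCtr, 0.324 to 0.364% in OCsEo and 0.311 to 0.390% in OCsEoS. In a bulk library, more cells in S phase and more of these RNAs per cell cannot be told apart.

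In OCsEo versus OCsCtr, 33 of 45 genes (73.3%) rose, against 9.06% of all genes tested, and 1 gene, Chaf1b, fell, against 8.35%. With the additional requirement of an absolute log2 fold change over 0.5, the cut-off used in the study, 14 genes rose (3.27% of all genes) and none fell (2.61%). The median log2 fold change was 0.40, compared with -0.01 over all genes, and 44 of the 45 values were above 0. For 30 genes all 4 OCsEo libraries lay above all 4 OCsCtr libraries (10.5% of all genes), and for 1 gene they lay below (10.9%).

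In OCsEoS versus OCsCtr, 34 genes (75.6%) rose, against 11.8% of all genes tested. The edgeR test found no gene of the list lower, either at an adjusted p under 0.05 (11.2% of all genes) or among the 37 genes with an unadjusted p under 0.05, and DESeq2 found none. With the fold cut-off, 20 genes rose (3.63% of all genes) and none fell (4.11%). The median log2 fold change was 0.49, compared with -0.01 over all genes, and 44 values were again above 0. The groups did not overlap for 28 genes, all higher in OCsEoS (12.6% of all genes are), and no gene lay wholly below OCsCtr (13.1%). Because both comparisons use the same 4 OCsCtr libraries, they are not independent of each other, and a low OCsCtr value raises both.

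**Figure D1:**
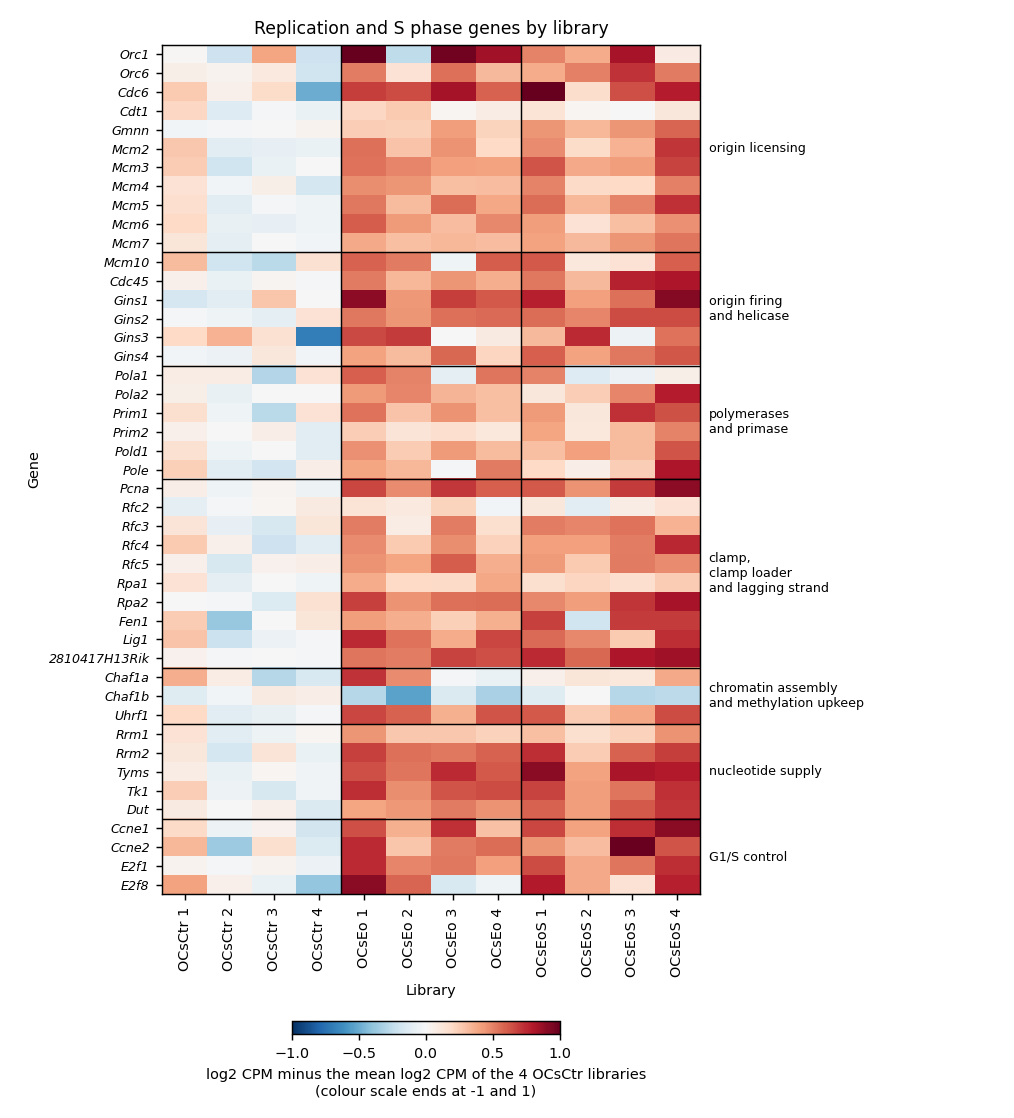
Level of each of the 45 genes (rows, grouped by role) in each of the 12 libraries (columns), as log2 CPM minus the mean log2 CPM of the 4 OCsCtr libraries, with red for higher and blue for lower. Most rows are red across the 8 stimulated libraries, while Cdt1 and Rfc2 stay near white and Chaf1b is blue in all 4 OCsEo libraries.

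To show what these genes share in sequence, the RefSeq promoters (GRCm38.p6, 250 bases before to 50 bases after the transcription start) were searched on both strands for the E2F site, written as the words TTTGGCGC, TTTCCCGC, TTTGCCGC and TTTCGCGC. Promoters were matched for 36 of the 45 genes, in 41 windows. A word was present in 14 of the 41 windows (34.1%), compared with 744 of all 32851 windows (2.26%). The 20 matches began between 185 bases before and 39 bases after the start site, with a median of 34 bases before it. A match describes the letters of the window and is not evidence of binding. The promoters of the 4 genes with a match and the smallest adjusted p are shown with the matching letters in capitals, on the strand of the gene, where a match on the opposite strand reads GCGGGAAA, GCGCGAAA, GCGGCAAA or GCGCCAAA.
2810417H13Rik, chr9:65890073-65890372, plus strand: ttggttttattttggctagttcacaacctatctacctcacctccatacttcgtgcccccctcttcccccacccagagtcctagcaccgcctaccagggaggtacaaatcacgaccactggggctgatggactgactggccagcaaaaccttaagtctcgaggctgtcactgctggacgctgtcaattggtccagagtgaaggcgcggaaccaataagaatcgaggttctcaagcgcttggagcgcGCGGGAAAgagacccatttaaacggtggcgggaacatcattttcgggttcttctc
Mcm7, chr5:138171834-138172133, minus strand: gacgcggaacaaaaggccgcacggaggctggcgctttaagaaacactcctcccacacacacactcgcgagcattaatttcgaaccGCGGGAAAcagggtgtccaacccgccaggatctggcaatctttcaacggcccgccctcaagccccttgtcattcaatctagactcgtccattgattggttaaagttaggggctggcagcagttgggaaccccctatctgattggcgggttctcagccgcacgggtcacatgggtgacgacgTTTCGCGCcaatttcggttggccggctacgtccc
Mcm5, chr8:75109259-75109558, plus strand: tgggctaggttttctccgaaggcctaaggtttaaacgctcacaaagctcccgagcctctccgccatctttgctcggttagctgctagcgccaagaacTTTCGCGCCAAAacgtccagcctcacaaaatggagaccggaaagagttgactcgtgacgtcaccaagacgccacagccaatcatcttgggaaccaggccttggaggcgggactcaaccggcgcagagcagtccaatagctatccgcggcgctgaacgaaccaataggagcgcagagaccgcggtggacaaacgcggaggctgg
Mcm3, chr1:20820263-20820562, minus strand: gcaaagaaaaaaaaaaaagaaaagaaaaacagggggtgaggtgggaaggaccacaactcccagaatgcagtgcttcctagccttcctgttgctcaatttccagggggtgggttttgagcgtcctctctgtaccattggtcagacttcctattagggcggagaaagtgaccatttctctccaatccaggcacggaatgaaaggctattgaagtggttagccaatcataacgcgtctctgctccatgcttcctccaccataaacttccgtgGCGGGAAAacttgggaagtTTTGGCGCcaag
In 2810417H13Rik the match begins 5 bases before the start site. Mcm7 carries a match 165 bases before and another 16 bases after it, and Mcm3 carries matches 19 and 38 bases after it. In Mcm5 a pair of overlapping matches, 1 on each strand, begins 153 and 149 bases before the start.

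Genes with and without an E2F word stood on both sides of the test. Cdt1 has 1 match and did not pass the test in either comparison, whereas the windows of Pcna, Tyms, Tk1, Dut and E2f1, all of which rose in both, hold none. For the G2/M element CHR (TTTGAA or TTCGAA), the share was 17.1% of the 41 windows, compared with 19.2% of all windows. The CCAAT box was found in 58.5% of the windows, compared with 37.4% of all.

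Of the 11 genes of origin licensing, 9 rose in each comparison. Their median log2 fold changes were 0.39 and 0.45. Mcm5 (ENSMUSG00000005410, chr8:75109528-75128439), a subunit of the MCM ring, was measured at 189.9, 156, 168 and 163 CPM in the 4 OCsCtr libraries, 244, 210.2, 248 and 221 in OCsEo and 249, 212, 238 and 280.3 in OCsEoS. The 8 stimulated libraries all lay above the highest OCsCtr library. The log2 fold change was 0.45 ± 0.08 (SE), adjusted p = 0.00076 in OCsEo and 0.53 ± 0.08 (SE), adjusted p = 0.00011 in OCsEoS. Mcm7 (ENSMUSG00000029730, chr5:138164583-138172422), another subunit, had the smallest standard error of the ring and was at 129, 112, 119 and 117 CPM in OCsCtr, 155, 147, 150.1 and 148 in OCsEo and 157, 149, 162 and 173 in OCsEoS. Again no stimulated library overlapped with OCsCtr, and Mcm7 rose by 0.33 ± 0.06 on the log2 scale in OCsEo (adjusted p = 0.0011) and by 0.43 ± 0.06 in OCsEoS (adjusted p = 7.2e-05).

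The other 4 subunits of the ring rose as well. Mcm3 increased from 70.9 ± 9.60 CPM to 97.1 ± 4.47 and 102 ± 10.4 (SD, n = 4 each), and Mcm4 from 51.7 ± 4.79 to 67.1 ± 4.09 and 65.9 ± 7.92, both without overlap with OCsCtr. Mcm6 increased from 135 ± 13.2 to 185 ± 15.7 and 170.3 ± 16.4, with no overlap in OCsEo, while OCsEoS 2 (149 CPM) lay below OCsCtr 1 (155 CPM). Mcm2 increased from 60.9 ± 8.11 to 78.8 ± 8.67 and 82.3 ± 13.1, with overlap in both because OCsCtr 1 reached 73.0 CPM. Its call in OCsEo (adjusted p = 0.022) was lost without OCsCtr 2, OCsCtr 3, OCsCtr 4, OCsEo 1 or OCsEo 3.

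Geminin passed the test in both comparisons and its target Cdt1 in neither. Gmnn (ENSMUSG00000006715, chr13:24751845-24761923) stood at 71.8, 72.5, 73.5 and 74.9 CPM in OCsCtr, 86.6, 86.2, 97.9 and 85.3 in OCsEo and 99.6, 92.2, 99.6 and 109.7 in OCsEoS. The OCsCtr libraries were close together and below all others, and Gmnn rose by 0.28 ± 0.07 on the log2 scale (adjusted p = 0.0065) and 0.45 ± 0.07 (adjusted p = 9.5e-05). With the trend over gene length taken out, the rise in OCsEo did not pass the test. Cdt1 (ENSMUSG00000006585, chr8:122568015-122573128), the loading factor, gave 71.2, 56.4, 61.1 and 59.0 CPM in OCsCtr, 71.2, 73.8, 62.5 and 65.1 in OCsEo and 68.0, 62.7, 61.6 and 66.8 in OCsEoS. All 3 groups overlapped, and the log2 fold change of 0.14 in OCsEo (95% interval -0.03 to 0.31, adjusted p = 0.27) and 0.06 in OCsEoS (-0.10 to 0.23, adjusted p = 0.63) did not pass the test. These intervals end below the median of the 45 genes in each comparison.

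Of the origin recognition complex and its partner, Orc6 rose from 29.7 ± 2.66 CPM to 38.9 ± 4.95 and 43.0 ± 4.42, and Cdc6, which recruits MCM to origins, from 9.80 ± 2.10 to 15.6 ± 1.14 and 15.4 ± 3.49. The call of Orc6 in OCsEo was lost without OCsCtr 4. For Cdc6, OCsEoS 2 (10.9 CPM) lay below OCsCtr 1 (11.5 CPM). Orc1 was scarce, at 2.23 ± 0.479, 3.69 ± 1.26 and 3.07 ± 0.673 CPM, and its log2 fold change of 0.72 in OCsEo, the largest of the list, had a 95% interval of 0.11 to 1.33 and did not pass the test (adjusted p = 0.097, and 0.29 in OCsEoS).

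Among the 6 genes of origin firing and the active helicase, 4 rose in each comparison, with medians of 0.42 in OCsEo and 0.56 in OCsEoS. Gins2 (ENSMUSG00000031821, chr8:120578633-120589304), a subunit of GINS, was at 36.2, 35.5, 34.4 and 40.3 CPM in OCsCtr, 52.5, 49.7, 53.4 and 54.0 in OCsEo and 53.9, 51.1, 57.5 and 57.4 in OCsEoS. No stimulated library came near the OCsCtr range, and Gins2 rose by 0.52 ± 0.08 (adjusted p = 9.6e-05) and 0.59 ± 0.08 (adjusted p = 2.3e-05) on the log2 scale. Of the exon bases of Gins2, 67.3% are also covered by exons of Gse1 on the other strand, which was at 8.35 CPM in OCsCtr and had log2 fold changes of -0.42 and -0.53, opposite in sign to Gins2. Gins1 had a larger fold change, from 16.6 ± 2.40 to 26.2 ± 3.53 and 26.4 ± 4.10 CPM (log2 fold changes 0.66 and 0.67).

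Gins4 rose from 53.2 ± 2.98 to 69.4 ± 7.45 and 77.1 ± 5.17 CPM, and Cdc45, which joins GINS on the helicase, from 17.1 ± 0.604 to 22.9 ± 1.34 and 26.4 ± 4.03, none of them overlapping with OCsCtr. Mcm10, needed for the helicase to start, and Gins3 were low and scattered and did not pass the test. Mcm10 was at 9.46 ± 1.86, 12.7 ± 2.46 and 12.2 ± 2.33 CPM, with 95% intervals of 0.06 to 0.79 in OCsEo and -0.00 to 0.73 in OCsEoS (adjusted p = 0.11 and 0.15). Gins3 was at 4.78 ± 1.34, 6.09 ± 1.55 and 6.19 ± 1.42 CPM, with intervals of -0.15 to 0.85 and -0.13 to 0.87 (adjusted p = 0.36 and 0.29).

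Of the 6 polymerase and primase genes, 3 rose in OCsEo and 4 in OCsEoS, with medians of 0.38 and 0.39, and none reached the fold cut-off. Pold1 (ENSMUSG00000038644, chr7:44532746-44548849), the catalytic subunit of polymerase delta, was at 38.3, 33.4, 34.4 and 32.1 CPM in OCsCtr, 47.3, 41.2, 46.2 and 43.0 in OCsEo and 42.4, 45.9, 43.0 and 53.3 in OCsEoS. The OCsCtr libraries lay below all others, and Pold1 rose by 0.36 ± 0.09 (adjusted p = 0.0073) and 0.42 ± 0.09 (adjusted p = 0.002). Prim1, the catalytic primase subunit, rose from 20.004 ± 2.71 to 26.2 ± 2.27 and 28.1 ± 5.10 CPM, and Pola2, a subunit of polymerase alpha, from 26.5 ± 1.00 to 34.8 ± 2.03 and 35.8 ± 7.57. In OCsEo the call of Prim1 (adjusted p = 0.043) was lost without OCsCtr 2, OCsCtr 3, OCsEo 1, OCsEo 3, OCsEo 4 or OCsEoS 1, and that of Pola2 (adjusted p = 0.023) without OCsCtr 2, OCsCtr 3, OCsEo 1 or OCsEo 2.

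Prim2, the large primase subunit, rose in OCsEoS (0.33 ± 0.08 (SE), adjusted p = 0.0071) but did not pass the test in OCsEo (0.16 ± 0.08 (SE), adjusted p = 0.21). The difference between both stimulated groups was 0.17 on the log2 scale (95% interval -0.01 to 0.34) and did not pass the test either. Pola1, the catalytic subunit of polymerase alpha, was at 14.7 ± 1.89, 19.4 ± 3.87 and 15.9 ± 3.33 CPM (adjusted p = 0.096 and 0.71). Pole, the catalytic subunit of polymerase epsilon, was at 9.41 ± 1.30, 11.7 ± 1.76 and 11.998 ± 2.98 CPM (adjusted p = 0.22 and 0.14). Their 95% intervals were wide, 0.06 to 0.73 and -0.23 to 0.44 for Pola1 and -0.04 to 0.66 and 0.00 to 0.70 for Pole.

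The clamp, clamp loader and lagging-strand group of 10 genes, in which 8 rose in each comparison, had medians of 0.40 and 0.51. Pcna (ENSMUSG00000027342, chr2:132249162-132253314), the sliding clamp and the most highly counted gene of the list, was at 323, 299, 314 and 298 CPM in OCsCtr, 488, 427, 503 and 465 in OCsEo and 472, 419.6, 502 and 574 in OCsEoS. All stimulated libraries lay well above the highest OCsCtr library. The log2 fold change was 0.61 ± 0.08 (SE), adjusted p = 2.2e-05 in OCsEo and 0.67 ± 0.08 (SE), adjusted p = 7.7e-06 in OCsEoS. A processed copy, Pcna-ps2, took 744 counts over all libraries, compared with 169401 for Pcna, and Pcna-ps1 took none.

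The smallest adjusted p of the list belonged to 2810417H13Rik (ENSMUSG00000040204, chr9:65890237-65903266), named Pclaf in RefSeq, which encodes a small PCNA-binding protein. Its levels were 130.5, 125, 126 and 125 CPM in OCsCtr, 184, 181, 203 and 198 in OCsEo and 213, 189, 222 and 228 in OCsEoS. The OCsCtr libraries spanned only a few CPM and all stimulated libraries lay far above them. 2810417H13Rik rose by 0.59 ± 0.06 (adjusted p = 3.8e-06) and 0.75 ± 0.06 (adjusted p = 5.3e-07) on the log2 scale.

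RPA, which coats the unwound strands, and the clamp loader rose in part. Rpa2 rose from 32.1 ± 2.65 to 47.4 ± 3.15 and 49.3 ± 6.59 CPM, and its large partner Rpa1 from 76.2 ± 5.49 to 92.9 ± 6.73 and 87.3 ± 2.74 (log2 fold changes 0.29 and 0.20, the latter at an adjusted p of 0.048). The call of Rpa1 in OCsEoS was lost in 11 of 21 alternatives, without a filter and without any single library other than OCsCtr 1 and OCsEo 3. Of the 4 loader subunits measured, Rfc5 rose from 53.7 ± 3.76 to 73.5 ± 5.68 and 71.9 ± 5.55, Rfc4 from 23.2 ± 3.32 to 29.6 ± 2.71 and 33.2 ± 3.92, and Rfc3 from 24.4 ± 2.45 to 30.5 ± 4.82 and 33.8 ± 1.94 CPM. The OCsEo and OCsCtr ranges overlapped for Rfc3 and Rfc4, and the OCsEoS range did not. In OCsEo the call of Rfc3 (adjusted p = 0.048) was lost in 10 of 21 alternatives, with edgeR on 2 groups and without any single library other than OCsEo 2, OCsEo 4 and OCsEoS 4. That of Rfc4 (adjusted p = 0.035) was lost with the length trend taken out and without OCsCtr 2, OCsCtr 3, OCsCtr 4, OCsEo 1 or OCsEo 3.

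Rfc2 (ENSMUSG00000023104, chr5:134581366-134601805), the remaining loader subunit, was at 90.4, 95.2, 97.7 and 103 CPM in OCsCtr, 106, 103, 113 and 94.8 in OCsEo and 104, 89.7, 101 and 107 in OCsEoS. All groups overlapped, and the 95% intervals of the log2 fold change, -0.04 to 0.26 and -0.09 to 0.21, end below the medians of the 45 genes (adjusted p = 0.34 and 0.63). Lig1, the ligase that joins Okazaki fragments, rose from 31.0 ± 4.70 to 46.2 ± 5.16 and 44.2 ± 5.98 CPM. Fen1, the flap nuclease of the same step, was at 6.61 ± 1.19, 8.31 ± 0.433 and 9.38 ± 2.47 CPM and did not pass the test (adjusted p = 0.26 and 0.062). Exons of the antisense gene Gm10143 cover 78.8% of its exon bases, and the strand setting of the counting is not given in the sources used here.

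**Figure D2:**
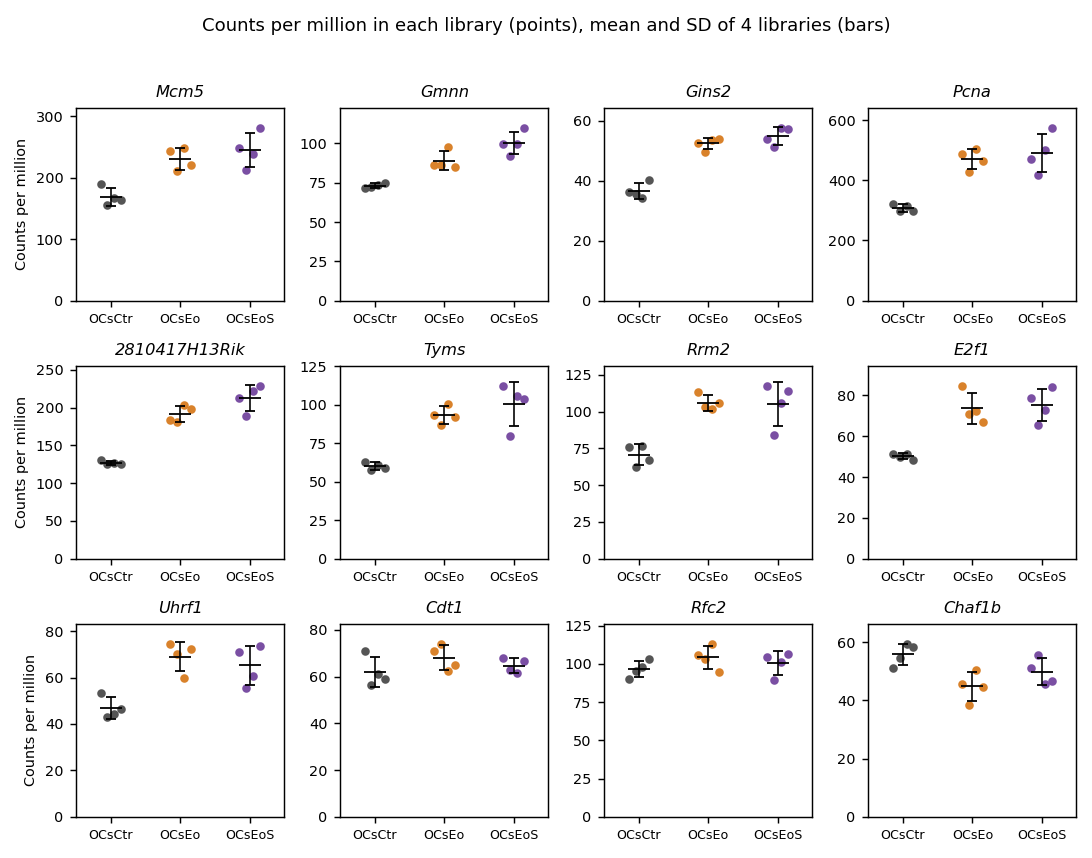
CPM (vertical axis, from 0) in each library for 12 genes, with a panel for each gene, with points for the 4 libraries of OCsCtr, OCsEo and OCsEoS and bars for mean and SD. Stimulated libraries lie above OCsCtr for 9 genes, Cdt1 and Rfc2 overlap across groups, and Chaf1b is lower in OCsEo.

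Of the 3 genes of chromatin assembly and methylation upkeep, 1 rose and 1 fell in OCsEo, and 1 rose in OCsEoS. Chaf1b (ENSMUSG00000022945, chr16:93883901-93906115), the middle subunit of the histone chaperone CAF-1, was at 51.2, 54.5, 59.2 and 58.3 CPM in OCsCtr, 45.7, 38.4, 50.3 and 44.5 in OCsEo and 51.2, 55.7, 45.6 and 46.5 in OCsEoS. All 4 OCsEo libraries lay below OCsCtr, though the gap between the groups was under 1 CPM, and the OCsEoS libraries overlapped with OCsCtr. Chaf1b fell by 0.32 ± 0.09 on the log2 scale in OCsEo (adjusted p = 0.017), and its value of -0.17 in OCsEoS did not pass the test (95% interval -0.35 to 0.02, adjusted p = 0.20). The fall in OCsEo did not pass the test without OCsCtr 3, without OCsCtr 4 or without OCsEo 2.

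Chaf1a, the large CAF-1 subunit, was at 11.9 ± 2.44, 14.6 ± 3.94 and 13.2 ± 1.39 CPM, with log2 fold changes above 0 that did not pass the test (adjusted p = 0.27 and 0.60). Over its exons in GENCODE vM21 (8854 bases), 52.5% of the bases are shared with Ubxn6 on the other strand. The count table gives Chaf1a a length of 3308 bases, so how many shared bases were counted is not known. Uhrf1 (ENSMUSG00000001228, chr17:56303321-56323486), which brings DNA methylation to newly copied strands, was at 53.4, 43.1, 44.3 and 46.4 CPM in OCsCtr, 74.3, 70.0, 59.8 and 72.2 in OCsEo and 71.2, 55.5, 60.8 and 73.5 in OCsEoS. No stimulated library overlapped with OCsCtr, and Uhrf1 rose by 0.56 ± 0.10 (adjusted p = 0.00047) and 0.48 ± 0.10 (adjusted p = 0.0012).

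All 5 genes of deoxynucleotide supply rose in both comparisons, each without overlap, with medians of 0.59 and 0.58. Tyms (ENSMUSG00000025747, chr5:30058202-30073617), which makes thymidylate, was at 63.1, 57.4, 60.9 and 58.7 CPM in OCsCtr, 93.6, 86.8, 101 and 91.7 in OCsEo and 112, 79.4, 105 and 104 in OCsEoS. The libraries of OCsEoS spread more than those of OCsEo, and the lowest, OCsEoS 2, still exceeded every OCsCtr library. Tyms rose by 0.64 ± 0.09 (adjusted p = 5.9e-05) and 0.74 ± 0.09 (adjusted p = 1.1e-05). Rrm2 (ENSMUSG00000020649, chr12:24708241-24714146), the small subunit of ribonucleotide reductase, was at 76.2, 62.1, 76.8 and 67.3 CPM in OCsCtr, 113, 103, 102 and 106 in OCsEo and 117, 83.9, 106 and 114 in OCsEoS. Its log2 fold changes were 0.59 ± 0.09 and 0.57 ± 0.09, compared with 0.30 ± 0.07 and 0.29 ± 0.07 for the large subunit Rrm1.

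Tk1, the S phase thymidine kinase of the salvage pathway, rose from 85.2 ± 10.5 to 130.5 ± 10.3 and 128 ± 12.3 CPM. Dut, which removes dUTP so that uracil is not built into DNA, rose from 81.4 ± 5.71 to 111 ± 3.99 and 122 ± 10.3 CPM.

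Of the 4 genes of G1/S control, 3 rose in each comparison, with medians of 0.51 and 0.59. E2f1 (ENSMUSG00000027490, chr2:154559407-154569892), an activating E2F factor, was at 51.4, 49.9, 51.3 and 48.3 CPM in OCsCtr, 84.4, 70.7, 72.4 and 66.8 in OCsEo and 78.8, 65.4, 72.9 and 84.0 in OCsEoS. The OCsCtr libraries agreed within a few CPM and lay below every stimulated library, and E2f1 rose by 0.55 ± 0.08 (adjusted p = 0.00016) and 0.58 ± 0.08 (adjusted p = 6.7e-05). Ccne1, the cyclin E that drives S phase entry with Cdk2, was at 19.9, 16.8, 17.9 and 15.4 CPM in OCsCtr, 27.2, 22.3, 28.9 and 21.3 in OCsEo and 27.7, 23.0, 29.1 and 32.6 in OCsEoS. It rose by 0.51 ± 0.13 and 0.68 ± 0.13 on the log2 scale, without overlap.

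Ccne2, the other cyclin E, rose from 19.0 ± 4.02 to 27.1 ± 3.61 and 28.7 ± 6.11 CPM, with overlap in both comparisons because OCsCtr 1 reached 23.6 CPM. Its call in OCsEo (adjusted p = 0.026) was lost without OCsCtr 2, OCsCtr 4, OCsEo 1 or OCsEo 4. E2f8, an E2F that represses these genes later in S phase, was at 6.94 ± 1.59, 8.94 ± 3.16 and 9.99 ± 2.15 CPM and did not pass the test (adjusted p = 0.30 and 0.10).

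**Figure D3:**
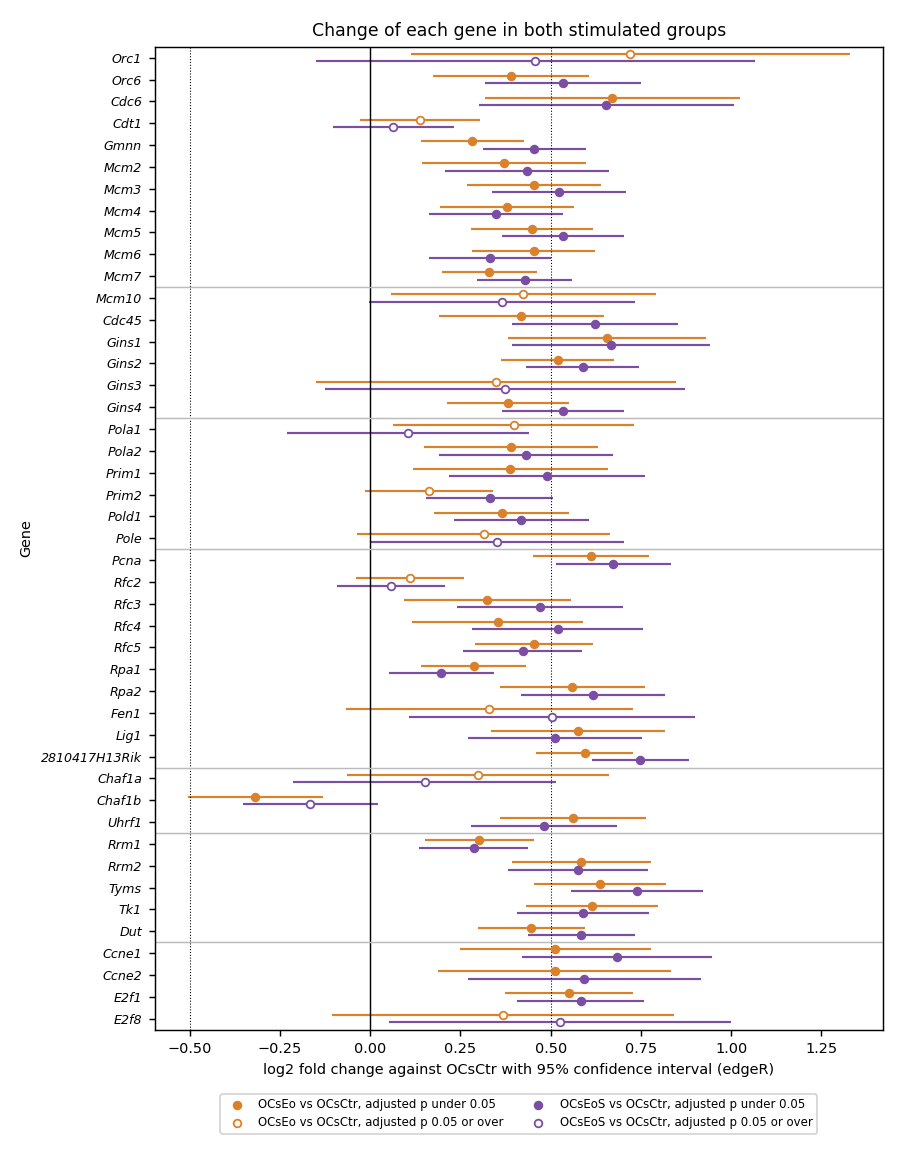
Log2 fold change of each gene in OCsEo and OCsEoS versus OCsCtr (points) with 95% intervals (lines) from the edgeR fit, ordered by role. Intervals lie above 0 for most genes, are narrow near 0 for Cdt1 and Rfc2, are wide for scarce genes such as Orc1 and Gins3, and lie below 0 for Chaf1b in OCsEo.

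No gene of the list separated the cultures given eosinophils from those given supernatant. In OCsEoS versus OCsEo, edgeR called 0 of the 45 genes at an adjusted p under 0.05, against 0.592% of all genes, 2 genes had an unadjusted p under 0.05, and DESeq2 also called 0. The log2 fold changes ranged from -0.29 (Pola1) to 0.20 (Cdc45) with a median of 0.06, and the lowest adjusted p was 0.33. No gene had groups without overlap, compared with 5.47% of all genes. Both genes with an unadjusted p under 0.05 were higher in OCsEoS, namely Gmnn (0.17, 95% interval 0.03 to 0.31) and 2810417H13Rik (0.15, 0.02 to 0.29). A missed threshold does not show that both stimuli act alike, and the interval for Pcna, for example, ran from -0.10 to 0.22.

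Within the groups, the 45 genes moved together from library to library. In OCsCtr 1, 39 of 45 genes lay above the mean of their own group, as did 41 in OCsEo 1 and 40 in OCsEoS 4, whereas in OCsEoS 2 only 4 did. Over all tested genes, between 49.3 and 53.1% lay above the group mean in any library. Across the 12 libraries, the deviations from the group means had a median correlation of 0.41 over the 990 pairs of these genes, compared with -0.01 between 1 of them and any other tested gene. The 45 values are therefore not 45 independent readings of a group, since all come from the same 12 libraries. Even OCsEoS 2, the lowest stimulated library, had a summed level of 3107 CPM, compared with 2714 in OCsCtr 1, the highest unstimulated one.

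Compared per length (CPM per kb of gene length in the count table), subunits of 1 complex stood at unequal levels. In the MCM ring, Mcm2 was lowest at 8.76 CPM per kb in OCsCtr and Mcm5 highest at 49.4, a ratio of 5.64, which was 5.95 in OCsEo and 6.05 in OCsEoS. In GINS, Gins3 was lowest at 1.98 and Gins4 highest at 39.0 CPM per kb in OCsCtr. The clamp loader was more even, from 6.75 for Rfc3 to 15.3 for Rfc2 in OCsCtr, and in both stimulated groups Rfc4 took the highest place, at 19.3 and 21.6 CPM per kb. The ratio of Chaf1b to Chaf1a was 3.10 in OCsCtr, 2.02 in OCsEo and 2.49 in OCsEoS, and that of Rrm1 to Rrm2 was 1.60, 1.32 and 1.31. No test was run on these ratios. The clamp itself exceeded all other genes of the list in each group, at 128, 196 and 205 CPM per kb. The gene length of the table equals the merged exons of GENCODE vM21 for 34 of the 45 genes. For others such as Rrm1, Pola2 and Chaf1a it is shorter, and for Chaf1b it is longer (ratio 1.07). A shorter length raises the level per kb only if reads of the further exons were counted, which is not known. Merged exons cover all annotated isoforms, and which isoforms were expressed was not tested. Before division by length, Mcm2 (6956 bases) was at 60.9 CPM and Mcm5 (3422 bases) at 169 CPM in OCsCtr.

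**Figure D4:**
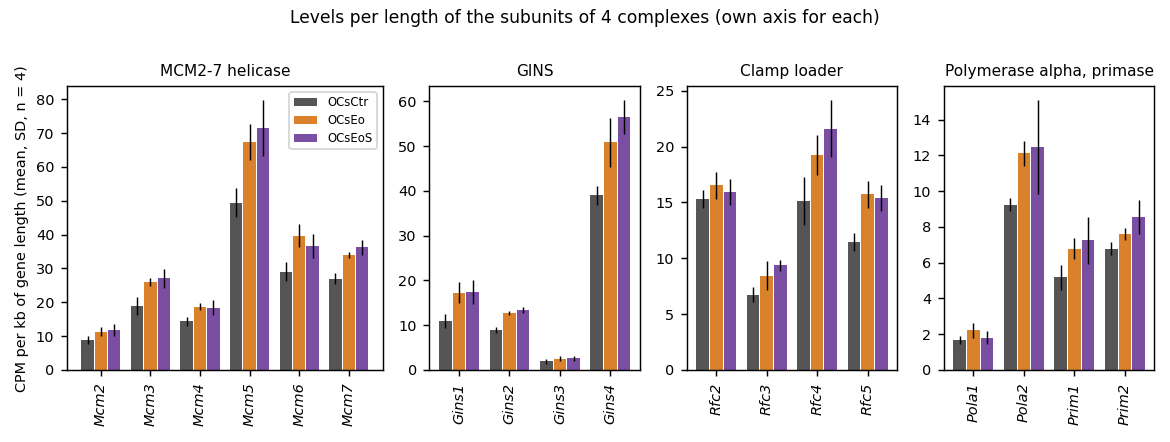
Mean CPM per kb of gene length in OCsCtr, OCsEo and OCsEoS (bars, with lines for SD). The panels show the subunits of the MCM ring, GINS, the clamp loader, and polymerase alpha with primase, each with its own vertical axis. Mcm2 is lowest and Mcm5 highest of the MCM ring in all 3 groups, and Rfc4 passes Rfc2 in both stimulated groups.

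The other genes of the pathway, which are not among the 45, also had median log2 fold changes above 0. For the counts that follow, the share over all genes tested was 9.06% higher in OCsEo and 11.8% higher in OCsEoS. Of 43 further fork and origin genes, 16 rose in OCsEo and 16 in OCsEoS, with medians of 0.30 and 0.31. Tipin, of the fork protection complex, rose from 38.4 ± 5.55 to 56.7 ± 5.50 and 61.0 ± 10.7 CPM, and Rpa3, the small RPA subunit, from 34.6 ± 2.82 to 46.4 ± 6.96 and 53.4 ± 6.21. Rnaseh2c, of the nuclease that removes RNA from DNA, and the histone chaperone Asf1b rose by 0.40 and 0.40 in OCsEo and by 0.41 and 0.53 in OCsEoS (log2). Of 24 further nucleotide genes, 8 rose in OCsEo and 15 in OCsEoS, with medians of 0.22 and 0.32. Dtymk, the kinase after Tyms and Tk1, rose from 102 ± 3.56 to 139 ± 14.9 and 153 ± 16.6 CPM, and Dctpp1, a dCTP pyrophosphatase, from 75.5 ± 9.80 to 103 ± 6.38 and 116 ± 8.71.

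Of 31 further G1/S genes, 12 rose in OCsEo and 12 in OCsEoS, with medians of 0.19 and 0.24. Ccnd1, the cyclin D1 that responds to growth factors, rose from 66.8 ± 16.1 to 111 ± 18.7 and 129 ± 19.1 CPM, and Ccna2, the S phase cyclin A, from 107 ± 8.80 to 162 ± 11.97 and 151 ± 18.1. The kinase inhibitor Cdkn2d (p19INK4d), which acts against cyclin D kinases, also rose, from 34.4 ± 2.56 to 54.2 ± 5.68 and 57.4 ± 4.98. Of the 19 checkpoint and repair genes, 2 rose in each comparison, when 9.06% of all tested genes rose in OCsEo and 11.8% in OCsEoS. Their medians were 0.15 and 0.23. Among them, Chek1, the checkpoint kinase, rose in OCsEo (log2 fold change 0.50, adjusted p = 0.027) and Rad1, of the checkpoint clamp, in OCsEoS (0.39, adjusted p = 0.018). Over these 4 lists the edgeR test called no gene lower, and 2 of the 117 genes tested were lower at an unadjusted p under 0.05 in each comparison.

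Of 20 mitosis genes, 17 rose in OCsEo and 11 in OCsEoS, when 9.06% and 11.8% of all tested genes rose. Their medians were 0.49 and 0.48, and none was lower against OCsCtr even at an unadjusted p under 0.05. Birc5 (survivin) rose from 90.8 ± 4.83 to 138 ± 4.63 and 144 ± 7.502 CPM, Plk1, a mitotic kinase, by 0.67 and 0.57, and Aurkb, the Aurora B kinase, by 0.50 and 0.62 (log2). In OCsEoS versus OCsEo, edgeR called 0 of the 20 mitosis genes, and 4 were lower at an unadjusted p under 0.05.

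Replication-dependent histone genes, whose products package the new DNA, had medians below 0, and most passed the test in neither direction. Of 70 such genes in the table, 38 passed the filter, and their median log2 fold change was -0.33 in OCsEo and -0.40 in OCsEoS. These medians rest largely on scarce genes, such as Hist1h4m at 0.442 CPM in OCsCtr. The summed level of the 70 genes, which rests on the abundant ones, was 281 to 359 CPM in OCsCtr, 196 to 261 in OCsEo and 159 to 239 in OCsEoS. The values in OCsEo scattered from -2.09 (Hist1h4m) to 2.11 (Hist1h3g). In OCsEo 1 rose and 3 fell, when 8.35% of all tested genes fell, and in OCsEoS 1 rose and 6 fell, when 11.2% of all tested genes fell. The 6 that fell in OCsEoS were the most abundant histone genes in OCsCtr. They include Hist1h4i, Hist1h2al and Hist1h4h, with log2 fold changes of -0.93, -1.27 and -1.39 in OCsEoS, which did not pass the test in OCsEo. Hist1h1c fell from 108 ± 9.62 to 78.1 ± 7.46 and 62.7 ± 12.8 CPM, Hist2h2be from 85.9 ± 15.2 to 51.8 ± 6.97 and 50.6 ± 10.9, and Hist1h2bc from 65.1 ± 7.28 to 44.0 ± 7.19 and 34.8 ± 7.11. These genes are known to give polyadenylated transcripts outside S phase as well, whereas most replication-dependent histone mRNAs lack a poly(A) tail and are lost where RNA is selected by it. Whether such a selection was used is not given in the sources used here. The 1 histone gene that rose, Hist1h3g, was at 0.236 ± 0.116 CPM in OCsCtr, 1.04 ± 0.569 after eosinophils and 1.02 ± 0.547 after supernatant.

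**Figure D5:**
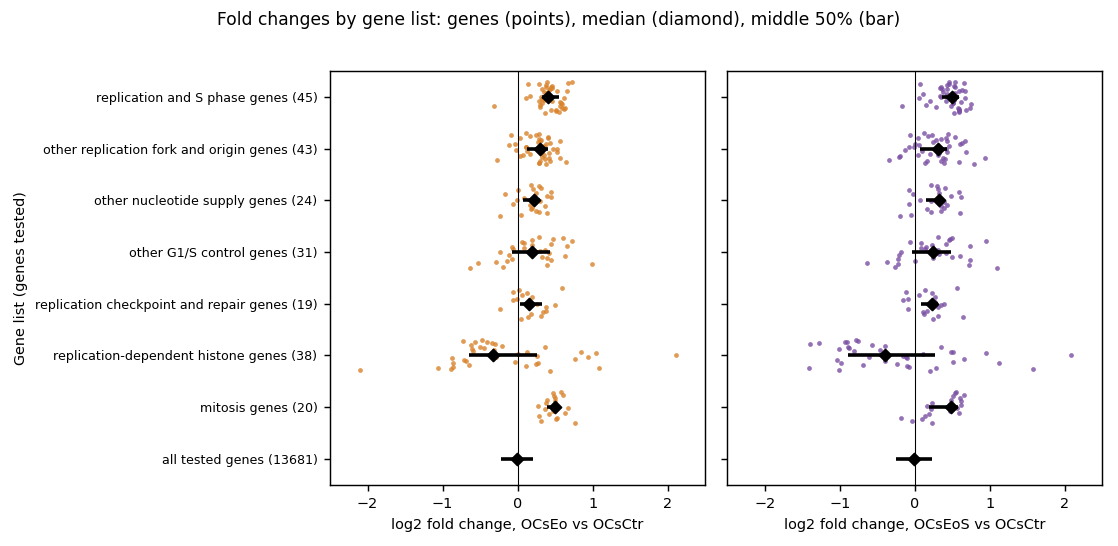
Log2 fold changes of the genes of each list in OCsEo and OCsEoS versus OCsCtr (points), with the median of each list. Replication, nucleotide, G1/S and mitosis lists have medians above 0, at 0.40 and 0.49 for the 45 genes, and the histone list has medians below 0.

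Osteoclast markers fell, while markers of other cell types rose, fell or passed the test in neither direction. Over all genes tested, 9.06% rose and 8.35% fell in OCsEo, and 11.8% rose and 11.2% fell in OCsEoS. All 10 osteoclast markers fell in both comparisons, and their summed level was 28358 to 34496 CPM in OCsCtr, 18093 to 23205 in OCsEo and 14942 to 22171 in OCsEoS. Ctsk, Mmp9 and Acp5, which encode the enzymes of bone resorption, made up most of it, and Ctsk fell from 12122 ± 1081 to 8359 ± 1026 and 7387 ± 1034 CPM. Of the 8 monocyte and macrophage markers tested, 3 rose and 1 fell in OCsEo, and 2 rose and 2 fell in OCsEoS. Over the 9 entries of this list in the count table, the summed levels were 6485 to 7108, 6672 to 8206 and 6194 to 7311 CPM. Of the 3 most abundant, Lyz2 rose in OCsEo (log2 fold change 0.21), Csf1r, the M-CSF receptor, fell in both (-0.44 and -0.57), and Cd68 fell in OCsEoS (-0.33).

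Of the 9 eosinophil markers, 4 passed the filter. The summed level of all 9 was 56.4 to 73.4 CPM in OCsCtr, 53.8 to 65.5 in OCsEo and 48.7 to 54.4 in OCsEoS. It was mostly Ccr3, the eotaxin receptor, at 59.6 ± 6.03 CPM in OCsCtr, which received no eosinophils. Of the 4 tested, 1 rose and 1 fell in OCsEo, and 2 fell in OCsEoS, with the shares over all genes given above. Ccr3 fell by 0.29 in OCsEo (adjusted p = 0.016) and by 0.23 in OCsEoS (adjusted p = 0.044) on the log2 scale. Prg2, a granule protein, fell from 5.53 ± 1.92 to 0.815 ± 0.838 CPM in OCsEoS and was at 5.49 ± 1.39 in OCsEo. Epx, the defining peroxidase, had 0 to 6 counts per library in OCsCtr, 0 to 18 in OCsEo and 0 in OCsEoS, while Siglecf rose in OCsEo from 0.428 ± 0.199 to 2.94 ± 0.317 CPM. Of 7 neutrophil markers 3 rose in OCsEo and none in OCsEoS, where 1 had an unadjusted p under 0.05 and was lower, with summed levels of 283 to 413, 403 to 532 and 326 to 389 CPM. S100a9 and Ngp rose in OCsEo (log2 fold changes 0.34 and 0.42), and S100a8 did not pass the test (0.30, adjusted p = 0.061). Of 7 stem and progenitor markers 2 rose in OCsEo (Elane and Ctsg) and none in OCsEoS, where 1 was higher and 1 lower at an unadjusted p under 0.05, with summed levels of 64.6 to 96.1, 83.7 to 138 and 71.9 to 92.1 CPM. Mpo, Prtn3 and Cd34, the most abundant of these, passed the test in neither comparison. Of the T cell, B cell, basophil and mast cell, erythroid and stromal markers, 21 passed the filter, and edgeR called none in either comparison with OCsCtr, with 3 at an unadjusted p under 0.05 in OCsEo and 1 in OCsEoS. The part of the falling osteoclast markers and of the other cell types in the rise of the replication genes was not tested.

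Several of the 45 genes start close to a neighbour on the opposite strand. A coding partner within 1000 bases was found for 10 of them (22.2%), compared with 16.5% of all tested coding genes. Of these 10 partners, 1 rose and 1 fell in OCsEo, when 9.06% of all tested genes rose and 8.35% fell. In OCsEoS 3 rose, when 11.8% of all tested genes rose. The median log2 fold change of the partners was 0.18 in each comparison. Next to Cdc45, for example, Ufd1 was at 57.6 CPM in OCsCtr with log2 fold changes of -0.01 and 0.11, neither passing the test.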

How the data were processed

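Bulk RNA-seq. was carried out on 12 libraries of day 3 osteoclasts, 4 per group. The authors cleaned paired-end reads (fastp is named in the submitters' processing notes), used HISAT2 2.0.5 with the GRCm38/mm10 genome for alignment and featureCounts for counting, and deposited raw counts, which were used here without change. The annotation release and strand setting of the counting are not given in the sources used here. Groups were taken from the sample titles and treatment labels.

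The 45 genes and all lists, with their tests, were chosen with earlier results of these data known, so no p over the list is given. In R 4.3.3, genes were filtered with edgeR 4.0.16 (filterByExpr, minimum count 10), which left 13681 genes. No count in any library was found for 27440 genes. Libraries were scaled by TMM, and a single model of the 12 libraries was fitted, from which each pair of groups was compared by the quasi-likelihood F-test of edgeR, with Benjamini-Hochberg adjustment over all genes tested. Genes were called at an adjusted p under 0.05, or additionally at an absolute log2 fold change over 0.5. The same steps were tested on simulated data. Deviations by library used log2 CPM with a prior count of 2. Coordinates are those of the count table, and overlaps were taken from GENCODE vM21 (GRCm38), which holds all 45 identifiers.

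All 45 genes are named. From each pathway list, up to 2 genes per direction with the smallest adjusted p in each comparison are named, and from marker lists up to 3 genes with the highest level, left out for the 5 lists without a call. Of the checkpoint and repair list, not every gene that this rule names is reported here. Epx, Elane, Ctsg and Ufd1 were chosen after their values were seen. Alternatives were DESeq2 1.42.0 on 12 libraries or on 2 groups, DESeq2 size factors, upper-quartile factors, no filter, edgeR on 2 groups, a minimum of 10 counts per library, a replicate block, a correction for gene length and each library left out. The main fit did not pair libraries by replicate number. Correlations of same-numbered libraries across groups lay between -0.04 and 0.09, and those of differently numbered libraries between -0.11 and 0.12. Low correlations cannot show whether same-numbered libraries share a mouse, which the labels do not give. Whole counts carry counting error, which the model's spread includes. Protein sequences were not used here.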

Additional observations from a re-analysis of the deposited data

Results flagged for a closer look

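In each gene and group of 4 libraries, the highest or lowest library was compared with the others by its gap relative to the range against Dixon's 95% critical value for 4 values. Of 135 sets tested, 8 were beyond it, and chance gives about 1 in 20. OCsCtr 1 stood high for Mcm2 (73.0 CPM, others 55.9 to 57.7), Mcm6 (155 CPM, others 127 to 131) and 2810417H13Rik (130.5 CPM, others 125 to 126). Elsewhere in OCsCtr, Gins4 was high in OCsCtr 3 (57.6 CPM, others 51.2 to 52.0) and Rfc5 low in OCsCtr 2 (48.1 CPM, others 55.1 to 56.0). In OCsEo 3, Gmnn was high (97.9 CPM, others 85.3 to 86.6) and Mcm10 low (9.05 CPM, others 13.4 to 14.2). Fen1 was low in OCsEoS 2 (5.67 CPM, others 10.5 to 10.7), the library in which 41 of the 45 genes lay below their group mean.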

How the results depend on the processing

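Over 21 alternatives, 12 of which leave out 1 library, no gene of the 45 changed direction with a call. In OCsEo versus OCsCtr, the genes that rose numbered 33, 27 to 33 with a library left out and 32 to 35 otherwise, the genes that fell 1 and 0 to 1 with a library left out, and those past the fold cut-off 14, 11 to 17 and 14. The fall of Chaf1b was lost without OCsCtr 3, OCsCtr 4 or OCsEo 2. In OCsEoS versus OCsCtr, 34 rose, 33 to 34 with a library left out and 34 to 37 otherwise, none fell, and 20 passed the fold cut-off, 17 to 24 and 20 to 21. No alternative called a gene of the 45 in OCsEoS versus OCsEo, where their median of 0.06 ranged from -0.02 (without OCsEoS 4) to 0.12 (without OCsEoS 2). Over all genes, the 13 higher and 68 lower calls of that comparison became 68 and 156 without a filter and 1 and 23 without OCsEoS 3. Of the 34 calls in each comparison, 25 in OCsEo and 33 in OCsEoS held in every alternative. Those lost in at least 1 were Orc6, Gmnn, Mcm2, Pola2, Prim1, Rfc3, Rfc4, Chaf1b and Ccne2 in OCsEo, and Rpa1 in OCsEoS. With the replicate block, 35 rose and 1 fell in OCsEo, 14 past the fold cut-off, and 37 rose in OCsEoS, 21 past the cut-off. The numbers share no stated batch. A library correlated best with its own number in 3 of 4 cases in each comparison, where 1 of 4 is expected if the numbers carry no link. Whether the numbers pair libraries was not tested. The intervals of Orc1, Gins3, Fen1, E2f8, Pole and Mcm10, none of which passed the test, also include changes as large as those of the genes that rose, and how much of their width depth contributes was not tested.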

Other observations

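The ratio of Gmnn to Cdt1 in each library, taken in CPM per kb of gene length, was looked at after the values of both genes were seen. It was 1.51 to 1.92 in OCsCtr (1.78 ± 0.19, SD, n = 4), 1.75 to 2.34 in OCsEo (1.97 ± 0.27) and 2.19 to 2.45 in OCsEoS (2.31 ± 0.14). The OCsEoS libraries lay above all OCsCtr libraries, while OCsEo overlapped with both. The ratio of the ribonucleotide reductase subunits Rrm2 to Rrm1, also per kb, was 0.587 to 0.706 in OCsCtr (0.625 ± 0.055), 0.740 to 0.801 in OCsEo (0.760 ± 0.028) and 0.664 to 0.843 in OCsEoS (0.761 ± 0.078). Here OCsEo lay above all OCsCtr libraries, and OCsEoS overlapped with OCsCtr. The gene length used is 0.697 of the merged exons for Cdt1 and 0.363 for Rrm1, which affects the size of both ratios equally in all groups. No test was run on these ratios.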
